A study of Mus musculus with 11 samples.

Results

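Nhsl1, Dhx40, Foxred1, Ift27, Nln and Mtrex are 6 genes that had lower signals in livers lacking Gsr, the gene of glutathione reductase. They were chosen by name because of that difference, and every probe set that the platform annotation gives to exactly 1 of them was taken. This gave 10 probe sets of 22626 on the array and 6 genes of 12393. Of the 10, 8 passed the filter on low values, a deposited log2 value above 4 in at least 5 of the 11 livers. The genes carry 1 probe set each for Nhsl1, Dhx40 and Foxred1, 2 each for Nln and Mtrex, and 3 for Ift27. Livers came from 6 Gsr-null and 5 wild-type (WT) male mice of strain C57BL/6J, aged 15 to 20 weeks, taken between 2 and 4 in the afternoon with no treatment. The allele behind the Gsr-null genotype is not described in the sources used here. RNA of the whole liver was measured, so fewer cells of a type and less RNA per cell cannot be told apart. Values are GCRMA probe set signals on the log2 scale.

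Their known roles are spread over several processes, with a pair of RNA helicases among them. Mtrex is the helicase that feeds RNA into the nuclear exosome, the complex that trims and destroys nuclear transcripts, and Dhx40 is a putative RNA helicase of the DEAH-box family. Foxred1 is a mitochondrial flavoprotein needed to assemble respiratory complex I. Nln, neurolysin, is a zinc metallopeptidase that cleaves short peptides such as neurotensin. Ift27 is a Rab-like small GTPase of the intraflagellar transport machinery that builds and serves cilia. Nhsl1 belongs to the Nance-Horan syndrome protein family and acts on actin at the cell edge through the WAVE complex.

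Of the 2 Gsr probe sets, the one with the higher mean was 4.71 to 5.29 in Gsr-null and 6.62 to 6.93 in WT livers, without overlap, and which part of the gene it reads is not known. Of the 8 hepatocyte markers looked for, 7 were on the array, all 7 passed the filter and 0 were called different. Over all tested genes 0.432% were called, so nothing about hepatocyte content is read from this count. Pairs of livers correlated at 0.935 to 0.989 across the tested probe sets, and no pair was identical. The 5th percentile of the log2 values on an array, used here as its floor, was 1.54 to 1.79 in Gsr-null and 1.53 to 1.58 in WT livers, highest in Gsr-null livers 2 and 3. Gsr-null liver 6 had the fewest probe sets above 4, at 9094, against 9377 to 9603 in the other livers. Control probe sets at both ends of Gapdh and Actb gave each array a 3' minus 5' difference, which tracks RNA quality. It parted the arrays into a lower set of 3 Gsr-null and 2 WT livers and a higher set of 3 Gsr-null and 3 WT livers.

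On the probe set with the highest mean, all 6 genes were lower in Gsr-null livers, by 0.46 for Mtrex to 1.14 for Nhsl1 on the log2 scale, with a median of -0.95 against -0.03 over all 6022 tested genes. Of the 6, 3 had groups that did not overlap, Nhsl1, Dhx40 and Nln, and 0.864% of all tested genes were lower without overlap. By limma, 2 of the 6, Nhsl1 and Dhx40, passed a Benjamini-Hochberg adjusted p under 0.05 over all tested probe sets, as did 0.216% of all tested genes in the lower direction. Foxred1, Ift27, Nln and Mtrex did not pass that test. Dhx40 kept its call in 19 of 21 alternative settings and Nhsl1 in 5. All of these counts follow from how the genes were picked, and nothing is read from them.

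**Figure D1:**
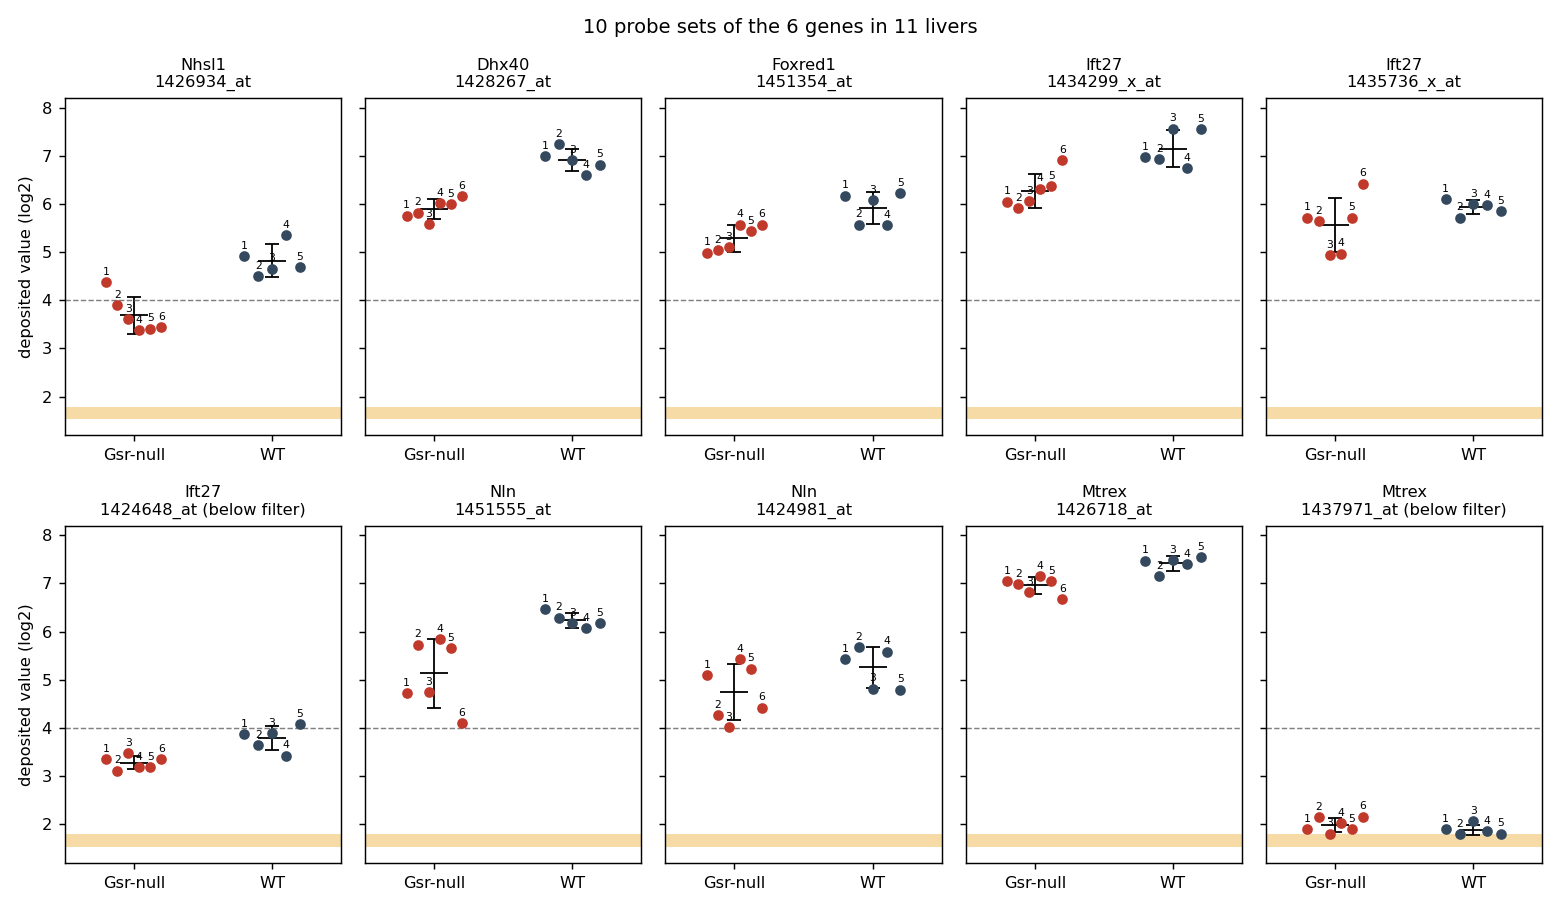
Deposited log2 values of the 10 probe sets in each of 6 Gsr-null and 5 WT livers, numbered by replicate, with mean and SD; the dashed line is the filter level of 4 and the shaded band the range of array floors, 1.53 to 1.79. Dhx40 keeps a clear gap between the groups, the probe sets of Ift27 and Nln differ among themselves, and the weaker Mtrex probe set lies just above the floor.

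Since the genes were picked for one direction of difference, their promoters were read from RefSeq for motifs in common. All 6 genes matched, with 7 windows of 300 bases, each from 250 bases before to 50 after an annotated start (Nhsl1 has 2 starts). The letters CACGTG, the palindromic E-box, stood in the windows of Dhx40 and Nln and in 7.15% of 32851 promoter windows. The letters TGACGT, the core of a cyclic AMP response element, stood at 2 places each in Dhx40 and Foxred1, read on both strands, and in 7.51% of all windows. The 3 windows that hold either motif are shown here 5′ to 3′ in the direction of the gene, in build GRCm38.p6, with matches to CACGTG and TGACGT on either strand in capitals. The Dhx40 window is chr11:86807611-86807910 on the minus strand, the Foxred1 window chr9:35211006-35211305 on the minus strand and the Nln window chr13:104109565-104109864 on the minus strand.
Dhx40: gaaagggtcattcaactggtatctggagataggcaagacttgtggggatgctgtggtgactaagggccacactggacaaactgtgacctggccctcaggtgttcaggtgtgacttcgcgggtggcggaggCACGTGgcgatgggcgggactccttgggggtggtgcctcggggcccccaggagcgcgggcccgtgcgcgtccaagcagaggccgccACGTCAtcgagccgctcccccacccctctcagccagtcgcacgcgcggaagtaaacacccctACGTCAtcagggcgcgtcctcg
Foxred1: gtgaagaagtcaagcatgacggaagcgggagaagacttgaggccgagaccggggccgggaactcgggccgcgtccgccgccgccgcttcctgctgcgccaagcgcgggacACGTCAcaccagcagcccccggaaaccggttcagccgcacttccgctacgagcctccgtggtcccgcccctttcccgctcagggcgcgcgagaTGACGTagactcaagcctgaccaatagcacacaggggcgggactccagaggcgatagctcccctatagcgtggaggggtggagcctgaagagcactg
Nln: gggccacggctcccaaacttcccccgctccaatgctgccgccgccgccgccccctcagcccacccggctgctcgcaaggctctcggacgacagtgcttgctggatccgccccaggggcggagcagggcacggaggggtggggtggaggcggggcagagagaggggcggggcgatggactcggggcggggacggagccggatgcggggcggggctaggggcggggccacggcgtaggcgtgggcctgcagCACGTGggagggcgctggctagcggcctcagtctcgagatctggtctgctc

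The E-box began 120 bases before the start in Dhx40 and 1 base before it in Nln. The antioxidant response element core TGACNNNGC had 3 matches in Dhx40, 1 of which overlaps a TGACGT match, and 0 in the other 6 windows, against at least 1 match in 12.4% of all windows. The letters GGGCGG, a GC box, stood 7 times in Nln, 2 times in Foxred1, 1 time in Dhx40 and 1 time in the first Nhsl1 window, and in 35.7% of all windows. CCAAT was found 3 times in Ift27 and 1 time in each of the Nhsl1, Foxred1 and Nln windows (37.4% of all windows). None of the 7 windows held TATAAA, which 13.6% of all windows hold. No one of these 6 motifs was present in all of the genes, and in the Mtrex window none of them was found. GC content was 51.3% to 75.0%, against a median of 52.7% over all windows.

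Dhx40 was lower in Gsr-null livers with the widest gap between the groups. Its values were 5.58, 5.91 and 6.15 (lowest, median and highest) in Gsr-null livers, against 6.99, 7.24, 6.92, 6.60 and 6.82 in WT livers. The highest Gsr-null liver therefore lay 0.449 below the lowest WT liver, and every value was at least 3.82 above its array's floor. Means were 5.89 ± 0.207 (SD, n = 6) in Gsr-null and 6.91 ± 0.233 (SD, n = 5) in WT livers, a difference of -1.03 (SE 0.141). Taken as a ratio of geometric means, from the difference of the log2 means, Gsr-null livers were at 49.1% of WT livers. The percentages of the WT mean given for the other genes are formed the same way. Dhx40 rests on a single probe set. In RefSeq the span of Dhx40 overlaps the long noncoding RNA gene Gm42085, that of Nln the long noncoding RNA gene Gm30967 and that of Nhsl1 the pseudogene Gm18942, while Foxred1 and Ift27 overlap no other gene.

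Nhsl1 was lower as well, but close to the bottom of the measured range. It was 3.39, 3.53 and 4.37 (lowest, median and highest) in Gsr-null livers, against 4.92, 4.50, 4.66, 5.36 and 4.69 in WT livers. The groups did not overlap, with a gap of 0.126, and Gsr-null liver 1 stood highest of its group. Only 1 of 6 Gsr-null livers was above the filter level of 4, against 5 of 5 WT livers, so the probe set passed the filter through the WT livers. Gsr-null values lay 1.83 to 2.83 above their array floors and WT values 2.96 to 3.80. The difference was -1.14 (SE 0.207), or 45.5% of the WT mean, and -0.61 when 16 was added to the linear signals to damp differences near the floor.

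Nln gave unlike answers on its 2 probe sets, although the annotation ties both to the same sequence record. On probe set 1451555_at Gsr-null livers 1 to 6 had 4.72, 5.73, 4.75, 5.85, 5.65 and 4.09, against 6.47, 6.29, 6.17, 6.07 and 6.17 in WT livers. Every Gsr-null liver was below every WT liver, and the Gsr-null livers fell into a high and a low trio. Means were 5.13 ± 0.713 (SD, n = 6) and 6.24 ± 0.153 (SD, n = 5), a difference of -1.10 (SE 0.294). On probe set 1424981_at the same Gsr-null livers had 5.10, 4.27, 4.02, 5.42, 5.23 and 4.42, against 5.42, 5.68, 4.82, 5.59 and 4.80 in WT livers. Here only 3 of 6 Gsr-null livers lay below all WT livers and the difference was -0.51 (SE 0.281). It was -0.31 with array weights, -0.33 with the pseudocount of 16 and -0.21 without Gsr-null livers 2 and 3. Over the 11 livers the deviations of the 2 probe sets from their genotype means correlated at 0.392. Averaging both gave -0.81 for the gene.

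The Gsr-null livers with the lowest Nln on probe set 1451555_at, numbers 6, 1 and 3, were also those with the highest Lcn2, the acute phase protein lipocalin 2, at 12.58, 13.03 and 10.27. In livers 2, 5 and 4 Lcn2 was 8.25, 7.50 and 5.90. The other Nln probe set did not follow that order, since liver 1, highest in Lcn2, had 5.10 and liver 2 had 4.27. Lcn2 was not among the genes planned to be named and was set against Nln alone. The relation was not tested. Summed linear signals of the 4 neutrophil markers, S100a8, S100a9, Csf3r and Cxcr2, ranged from 26.4 to 203 in Gsr-null and from 26.9 to 31.6 in WT livers, with all 4 higher on average in Gsr-null livers. Of the 4 markers, 0 passed the filter, and Csf3r and Cxcr2 were below 4 on every array. The part of such cells in the Nln values was not tested.

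Ift27 was lower on its strongest probe set, with smaller differences on its other probe sets. Probe set 1434299_x_at had 5.92, 6.19 and 6.91 (lowest, median and highest) in Gsr-null livers, against 6.97, 6.93, 7.56, 6.74 and 7.55 in WT livers. The groups overlapped through Gsr-null liver 6, which at 6.91 exceeded WT liver 4. The difference was -0.88 (SE 0.209), or 54.3% of the WT mean. Probe set 1435736_x_at had 4.93, 5.68 and 6.42 in Gsr-null livers, against 6.09, 5.72, 6.00, 5.98 and 5.86 in WT livers, with liver 6 above all WT livers and a difference of -0.36 (SE 0.236). That difference was -0.24 without Gsr-null liver 3 and -0.22 without Gsr-null livers 2 and 3. Probe set 1424648_at did not pass the filter. It was 3.12 to 3.47 in Gsr-null and 3.43 to 4.08 in WT livers, within 2.52 of the array floors. Its difference was -0.51 (SE 0.119, fitted without the filter), with 5 of 6 Gsr-null livers below all WT livers. The deviations of 1434299_x_at correlated at 0.432 with those of 1435736_x_at and at 0.553 with those of 1424648_at over 11 livers. Those of 1435736_x_at and 1424648_at correlated at -0.009. Probe sets with the suffix _x_at can bind related transcripts, so both stronger values may include other genes.

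Hepatocytes as a rule carry no primary cilium, whereas bile duct cells do, and the bile duct markers were near the floor. Of 6 looked for, 5 were on the array and 4 of these, Krt19, Krt7, Epcam and Cftr, were below 4 on every array. The summed linear signal of the list was 23.9 to 40.4 in Gsr-null and 26.5 to 35.1 in WT livers, and 2 of the 5 markers were higher on average in Gsr-null livers.

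Foxred1 showed a moderate difference that reached the lowest WT livers. It was 4.99, 5.27 and 5.57 (lowest, median and highest) in Gsr-null livers, against 6.17, 5.57, 6.08, 5.56 and 6.22 in WT livers. Gsr-null livers 4 and 6 and WT liver 2 had exactly the same deposited value, to its last digit, and WT liver 4 lay just beneath it. The difference was -0.64 (SE 0.177), or 64.4% of the WT mean. Foxred1 has 1 probe set, with 4 of 6 Gsr-null livers below all WT livers.

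Mtrex had the smallest difference of the 6. Probe set 1426718_at was 6.68, 7.02 and 7.16 (lowest, median and highest) in Gsr-null livers, against 7.48, 7.16, 7.49, 7.41 and 7.55 in WT livers. The groups met in a tie between Gsr-null liver 4 and WT liver 2, and otherwise did not overlap. The difference was -0.46 (SE 0.12), or 72.8% of the WT mean, in values at least 5.06 above the floor. The second probe set, 1437971_at, was 1.81 to 2.16 in Gsr-null and 1.80 to 2.06 in WT livers, at most 0.545 above the array floors, too low to show a difference in either direction. In RefSeq the span of Mtrex overlaps that of Plpp1, a lipid phosphatase, which differed by -0.23 (limma adjusted p = 0.93). Ties of this kind are common in the table. Of all tested probe sets, 29.1% held at least 1 pair of arrays with identical values and 18.2% held such a pair across the genotypes.

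Foxred1 moved with the 3' minus 5' difference of the arrays, a relation that played no part in choosing the genes. With genotype in the same limma fit, Foxred1 rose by 0.64 per unit of that difference (SE 0.134, limma adjusted p = 0.0183). Its values were 4.99 to 5.10 in the 3 Gsr-null livers of the lower set and 5.44 to 5.57 in those of the higher set. WT livers of the lower set had 5.56 and 5.57, and those of the higher set 6.08 to 6.22. It was the 1 of 8 tested probe sets of the 6 genes with a called slope, and 5.71% of all tested probe sets were called. The call was lost without WT liver 2 (limma adjusted p = 0.0719) or WT liver 4 (limma adjusted p = 0.0558), with slopes of 0.62 and 0.65. Ift27 on 1434299_x_at had a slope of 0.67 (SE 0.191, limma adjusted p = 0.0662) that did not pass, and passed without WT liver 1 (limma adjusted p = 0.0447). The slopes of Nhsl1, Dhx40, Nln and Mtrex were -0.45, 0.20, 0.15 and 0.14 (limma adjusted p = 0.334, 0.581, 0.88 and 0.674). None of these passed on leaving out any single liver, and their sizes depended on single livers. The slope of Nhsl1 ranged from -0.71 without WT liver 2 to -0.29 without WT liver 4, and that of Dhx40 from 0.09 without WT liver 4 to 0.41 without WT liver 2. That of Nln ranged from 0.015 without Gsr-null liver 4 to 0.42 without Gsr-null liver 6, and that of Mtrex from 0.05 without WT liver 2 to 0.22 without Gsr-null liver 6.

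**Figure D2:**
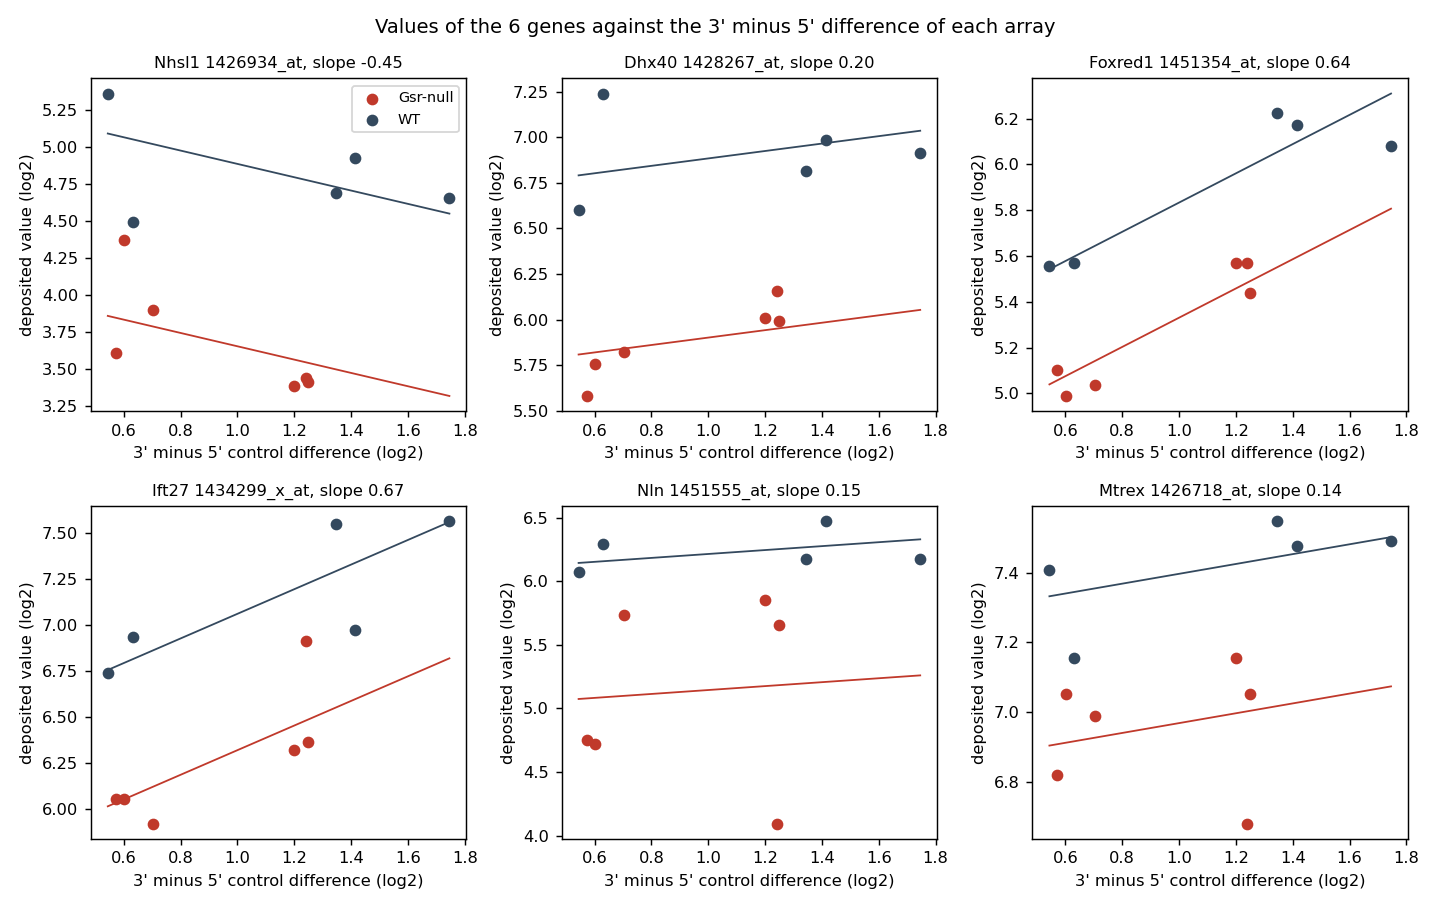
Deposited log2 value of each gene's highest probe set against the 3' minus 5' difference of the control probe sets (log2) for 6 Gsr-null and 5 WT livers, with lines of 1 common slope fitted with genotype in the model. Foxred1 and Ift27 have the steepest lines, with slopes of 0.64 and 0.67, and Nhsl1 slopes the other way at -0.45.

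Foxred1 differed between the genotypes by -0.52 among arrays of the lower set and by -0.63 among those of the higher. Ift27 on 1434299_x_at differed by -0.83 in both. Dhx40 differed by -1.20 and -0.85, Nhsl1 by -0.97 and -1.34, and Mtrex by -0.33 and -0.54. Nln on 1451555_at differed by -1.11 and -1.07, whereas on 1424981_at it differed by -1.17 in the lower set and 0.01 in the higher. The contrast between the sets was not tested.

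**Figure D3:**
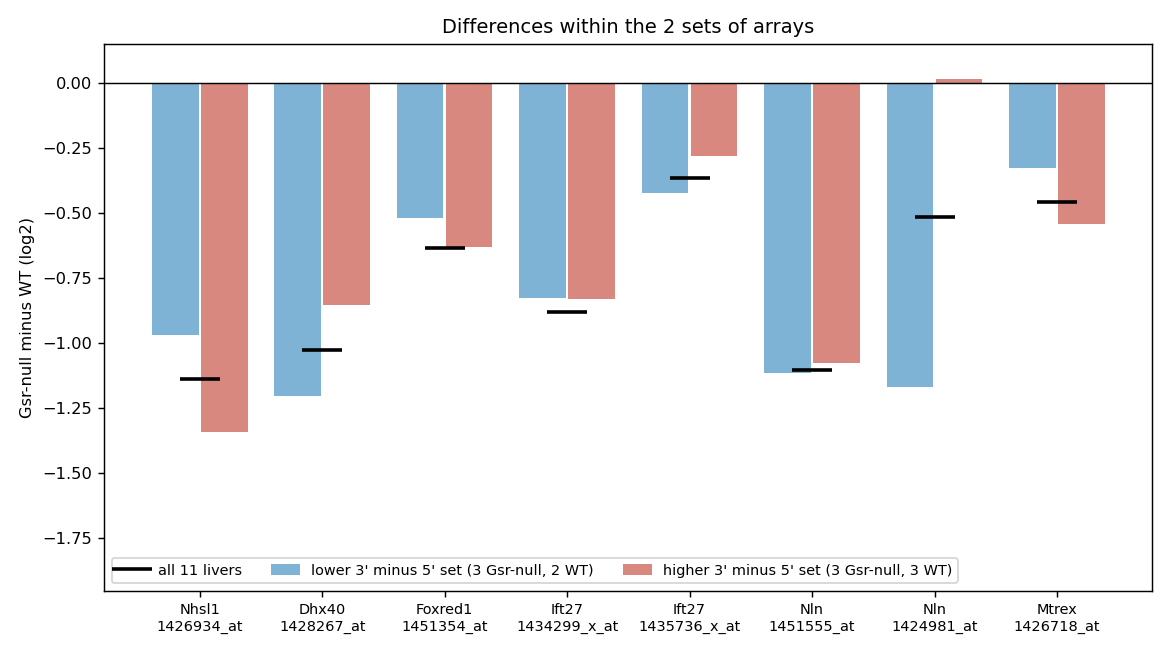
Gsr-null minus WT difference (log2) of the 8 tested probe sets within the arrays of lower (3 Gsr-null, 2 WT) and higher (3 Gsr-null, 3 WT) 3' minus 5' difference, as bars, with the difference over all 11 livers as a black dash. Of the 16 bars, only that of Nln 1424981_at in the higher set, at 0.01, is not below 0.

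None of the tested genes that share a complex or family with the 6 passed the test. Over the 6 lists 64 other genes were tested and limma called 0 in either direction, where 0.432% of all tested genes were called. At an unadjusted limma p under 0.05 there were 6 of the 64, against 8.78% of all tested genes. The 64 genes had a median difference of -0.035, against -0.032 over all genes. Beside the counts of lower and higher genes given below, 3451 of all 6022 tested genes were lower.

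Among 20 tested genes of the RNA exosome and its cofactors, 12 were lower and 8 higher, with a median of -0.05. Dis3, a catalytic subunit, differed by -0.22 (limma adjusted p = 0.797) and Exosc7, a ring subunit, by 0.37 (limma adjusted p = 0.68). Of 6 tested DEAH-box helicases 4 were lower and 2 higher, with a median of -0.09. Dhx15, a splicing helicase, differed by -0.24 (limma adjusted p = 0.867) and Dhx32 by 0.13 (limma adjusted p = 0.935).

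Of 9 tested complex I assembly genes 5 were lower and 4 higher, with a median of -0.01. Dmac2 and Timmdc1, both needed for building the membrane arm, differed by -0.42 (limma adjusted p = 0.464) and -0.35 (limma adjusted p = 0.55). Of 30 listed genes of intraflagellar transport and the BBSome, a coat that carries cargo in cilia, 17 were on the array and only 6 passed the filter, 3 of them lower. Cluap1 and Ift46, which like Ift27 belong to the transport complex B, differed in opposite directions, by -0.51 (limma adjusted p = 0.31) and 0.37 (limma adjusted p = 0.509). Cluap1 was above 4 in 2 of 6 Gsr-null and 5 of 5 WT livers, so it was tested through the WT livers, where it is higher.

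Of 12 tested peptide-cleaving peptidases 7 were lower and 5 higher, with a median of -0.05. Prep, prolyl endopeptidase, differed by -0.22 and Nrd1, nardilysin, by -0.20 (both limma adjusted p = 0.797). Of 11 tested genes of the WAVE and Arp2/3 complexes and Rac1, the GTPase that activates WAVE, 9 were lower and 2 higher, with a median of -0.03. Arpc1a and Arpc2, subunits of Arp2/3, differed by -0.31 (limma adjusted p = 0.548) and -0.20 (limma adjusted p = 0.853).

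**Figure D4:**
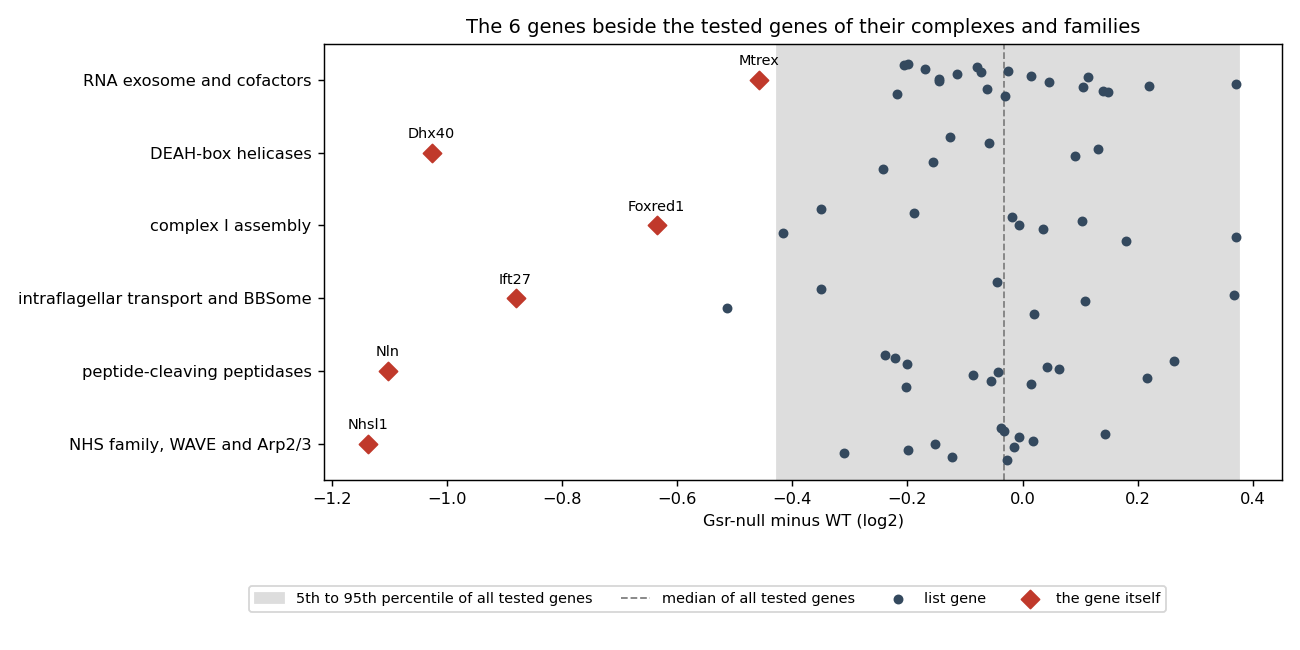
Gsr-null minus WT difference (log2) of each gene's highest probe set: diamonds are the 6 genes, dots the tested genes of the list each belongs to, and the grey band the 5th to 95th percentile of all 6022 tested genes, -0.43 to 0.38. Apart from Cluap1 at -0.51, which passed the filter through the WT livers, the list genes lie inside the band, and each of the 6 genes lies left of it.

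None of the tested chromosomal neighbours of the 6 genes passed the test over all livers. Nln and Mtrex both lie on chromosome 13, and the others on chromosomes 10 (Nhsl1), 11 (Dhx40), 9 (Foxred1) and 15 (Ift27). Among the 5 tested genes on each side of each, 57 in all, limma called 0, where 0.432% of all tested genes were called. At an unadjusted limma p under 0.05 there were 6 of the 57, against 8.78% of all tested genes. Of the 57, 30 were lower and 27 not, with a median of -0.02, and 3451 of all 6022 tested genes were lower. Of the 10 neighbours of Nln 7 were lower, with a median of -0.15, and 2 were at an unadjusted limma p under 0.05. These were Trappc13 and Mrps36, a mitochondrial protein named after its values were seen, at -0.52 (limma adjusted p = 0.282). With so few genes, nothing is read from these counts. The nearest tested genes of Dhx40 were Cltc, the clathrin heavy chain, at -0.14 and Trim37, a ubiquitin ligase, at 0.41 (limma adjusted p = 0.867 and 0.592). Those of Foxred1 were Tirap, a Toll-like receptor adaptor, at 0.35 and Srpr, the signal recognition particle receptor, at 0.17 (limma adjusted p = 0.664 and 0.965). Those of Nhsl1 were Ccdc28a at 0.54 and Perp at 0.33 (limma adjusted p = 0.332 and 0.662), with Ccdc28a above 4 in 6 of 6 Gsr-null and 2 of 5 WT livers. Those of Nln were Erbin at -0.20 and Trappc13 at -0.66 (limma adjusted p = 0.946 and 0.443), and the nearest on the far side of Mtrex from Plpp1 was Snx18 at 0.13 (limma adjusted p = 0.937). Ift27 lay between Eif3d, at -0.26 (limma adjusted p = 0.89), and Csf2rb, a cytokine receptor subunit, at 0.72 (limma adjusted p = 0.186). Csf2rb was 3.67 in Gsr-null liver 6 and 4.26 to 4.71 in the other Gsr-null livers, against 3.38 to 3.92 in WT livers, and limma called it higher when liver 6 was left out. It was above 4 in 5 of 6 Gsr-null and 0 of 5 WT livers, so it entered the test only through the group where it is high, and nothing is read from that call.

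Once genotype means were removed, the 6 genes varied in no common pattern. Deviations from the genotype means over 11 livers gave 15 pairs with r from -0.646 (Nhsl1 and Dhx40) to 0.778 (Foxred1 and Ift27), a median of 0.069 and 8 positive pairs. Nln and Mtrex reached 0.619. Gsr-null liver 6, the array with the fewest probe sets above 4, was lowest of all livers on the main probe set of each. Nhsl1 was negative with Dhx40, Foxred1 and Ift27, weakly so with Nln (-0.163), and positive with Mtrex (0.223). All of these values come from the same 11 arrays and share their processing.

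For each gene, the 3 tested genes most like it in those deviations were sought among 5945, with predicted genes and clone names passed over and the other members kept in the search. Foxred1 was nearest to Cops9 (0.975), Gna11 (0.972) and Noc2l (0.955), and each of these also had a called slope on the 3' minus 5' difference, of 0.62, 0.69 and 0.60 (limma adjusted p = 0.0134, 0.0205 and 0.0216), as did 2.79% of all tested genes. Ift27 was nearest to Slirp (0.910), Furin (0.908) and Ndufa6 (0.903). The first 2 of these had called slopes of 0.68 and 0.65 (limma adjusted p = 0.0196 and 0.027). Since all these genes were picked for varying like Foxred1 or Ift27, their slopes follow in part from that choice. Nothing is read from these slope calls. Mtrex was nearest to Ccnd1, cyclin D1 (0.948), Vps36 (0.937) and Sowahc (0.912). Nln was nearest to Ino80c (0.916), Ghitm (0.913) and Gstm4 (0.910), Nhsl1 to Nudcd3 (0.901), Cyp51 (0.890) and Degs1 (0.881), and Dhx40 to Rwdd2b (0.865), Usp38 (0.859) and Ap1m1 (0.859). These values describe the same 11 arrays and carry no test.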

How the data were processed

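Liver RNA of 6 Gsr-null and 5 WT mice was measured on single-colour Affymetrix mouse arrays, which the labels call biological replicates. The authors deposited 1 log2 value per probe set and array, made with GCRMA, per the submitters' processing notes; the log2 scale was read from the range of the values. GCRMA corrects background by probe sequence and normalizes between arrays, and its effect on differences near the floor was not tested. Neither its version nor any scan date or batch is given in the sources used here. The number of arrays limits the precision.

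Probe sets above 4 in at least 5 livers (9560 of 22626, without 64 controls) entered linear models in limma 3.58.1 under R 4.3.3, with eBayes moderation and Benjamini-Hochberg adjustment over all of them. Each gene is represented by whichever of its tested probe sets had the highest mean. The 6 genes, the lists and the tests were chosen with earlier results of these data known, and since the genotype contrast chose the genes, their differences are descriptions. A second fit added each array's 3' minus 5' difference. Named by plan besides the 6 are the 2 list genes of smallest p per list, the nearest tested neighbours, and the 3 genes closest in deviations. Lcn2 and Mrps36 were named outside that plan. RefSeq (GRCm38.p6) served for names, gene order and promoters. The fits were tested on simulated data with noise drawn independently for each probe set and array. That checks the code and not the calls made in these livers. Alternatives covered filters, scaling, variance models, blocks, a pseudocount and left-out samples. Gsr-null and WT livers of the same replicate number had deviations correlated at -0.243 to 0.036. This shows no pairing by replicate number, but so few values cannot settle whether livers were paired. The sample titles also carry other numbers for the Gsr-null livers, which were not checked. Figures were drawn with matplotlib 3.10.9.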

Additional observations from a re-analysis of the deposited data

How the results depend on the processing

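The 8 tested probe sets of the 6 genes kept a negative difference in all 166 values under alternatives, and 165 moved by less than the spread between replicates; the exception was Nhsl1, at -0.61 with the pseudocount of 16, by construction a damping of low signals. Dhx40 passed limma's threshold in all alternatives but the replicate block and the omission of Gsr-null livers 2 and 3 together. Of 21 alternatives Nhsl1 passed in 5, Ift27 in 3, Foxred1 in 1, and Nln and Mtrex in 0. The genes were picked on this contrast in the same livers, so nothing is read from these signs and counts. Over the whole table limma called 16 probe sets higher and 21 lower. With the filter at 6, where fewer are tested, these became 7 and 7, without Gsr-null livers 2 and 3 together 6 and 4, and leaving out single livers gave 9 to 24 and 5 to 19. The higher count moved by over 1.5 times without WT liver 5, and the lower without any WT liver or Gsr-null liver 2 or 3. With the replicate number as a block, in a pairing that the check of deviations does not bear out, the counts were 2 and 1. The count of list genes was 0 throughout. The count of higher neighbours was 0 to 1 on leaving out single livers, 1 being Csf2rb without Gsr-null liver 6, which passed the filter only through the Gsr-null livers, and 0 under the other alternatives. The slope of Foxred1 was 0.61 to 0.78 on leaving out single livers. That of Ift27 on 1434299_x_at was 0.56 to 0.75, and passed with array weights at 0.63 (limma adjusted p = 0.0286). The causes of these changes were not tested apart from those named. Signals within about 2 units of the array floors limit what Nhsl1, the weakest Ift27 probe set and the second Mtrex probe set can show.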
